A study of Mus musculus with 56 samples.

Results

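The genes described here are the 8 that encode the mammalian enzymes which write and erase DNA methylation and the catalytic subunits which write histone H3 lysine 27 methylation, namely *Dnmt1*, *Dnmt3a*, *Dnmt3b*, *Tet1*, *Tet2*, *Tet3*, *Ezh1* and *Ezh2*. They were chosen by name, and all 8 were found among the 55359 genes of the count table and among the 19657 genes that passed the filter on low counts. RNA-Seq measured them in CD8 T cells specific for the model antigen OVA presented on Kb, called TFGS for fetus/graft-specific T cells, which were sorted from spleen and lymph nodes of female C57BL/6 mice purchased at 8 to 12 weeks of age. Naive mice had neither a graft nor a mating, and Sensitized mice had rejected a 2W-OVA.BALB/c skin graft, with analysis from day 30 after grafting. N+P mice were naive females and S+P mice were sensitized females that then carried a semi-allogeneic pregnancy sired by a 2W-OVA.BALB/c male, and both were analyzed on post-partum day 0 to 3. The post-partum cells were split by surface PD1 and CD73 into PD1- cells (N+P C1, S+P C4), PD1+CD73+ cells (N+P C5, S+P C5) and, in S+P mice, PD1+CD73- cells (S+P C7). Every library held 200 cells and was made by SmartSeq2, a full-length protocol for small cell numbers, and the Naive and Sensitized cells were not split by these gates.

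DNMT1 copies existing methylation to the new strand after DNA replication, whereas DNMT3A and DNMT3B add methylation to sites that lacked it. TET1, TET2 and TET3 oxidize methylcytosine, which starts its removal. EZH2 and its paralog EZH1 are alternative catalytic subunits of Polycomb repressive complex 2 (PRC2), and EZH2 is known to be abundant in activated and dividing lymphocytes while EZH1 is also found in resting cells. In CD8 T cells some of these enzymes are known for a part in silencing naive-associated genes during effector differentiation and in fixing the exhausted state.

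Among the 30 samples, 3 stood apart before any test. S+P C4 replicate 2, S+P C4 replicate 3 and S+P C7 replicate 3, each of a single library, had counts in 8002, 7436 and 7879 genes. The other samples had counts in 12383 or more. S+P C7 replicate 3 also carried summed erythroid and platelet markers of 20068 CPM (counts scaled to the sample's total) and summed B cell markers of 5931 CPM. Tests are therefore given with all 30 samples and without these 3. A library found with the same counts under Naive and under S+P C4 was left out of both. Nearly identical libraries of S+P C7 replicates 1 and 2 were averaged, so that these mice count as 1 sample. The 8 CD8 T cell markers summed to between 5673 and 9654 CPM in every sample. In bulk samples such as these, fewer expressing cells and less RNA per cell cannot be told apart.

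Per length of exon and over all samples, *Ezh2* had the highest median of the 8 transcripts and *Tet1* the lowest, but the order differed between groups. The median over the 30 samples was 11.4 CPM per kb for *Ezh2*, 7.72 for *Dnmt1*, 5.48 for *Ezh1*, 4.51 for *Tet2*, 3.44 for *Tet3*, 3.00 for *Dnmt3a*, 0.925 for *Dnmt3b* and 0.345 for *Tet1*. In Naive *Ezh2*, at 2.52 to 3.35 CPM per kb, was below *Dnmt1*, at 5.67 to 7.53 CPM per kb, in every sample. In N+P C1 it was below *Dnmt1*, *Ezh1* and *Tet3* in every sample. *Tet1* had 3 or fewer counts in 7 samples and *Dnmt3b* in 5. Between technical libraries made from the same mouse and subset, the median absolute log2 difference over 22 pairs was 0.35 for *Ezh2*, 0.46 for *Tet2*, 0.48 for *Tet3* and for *Dnmt3a*, 0.65 for *Ezh1*, 0.89 for *Dnmt1*, 1.12 for *Dnmt3b* and 1.56 for *Tet1*. By this median the technical libraries thus agreed best for *Ezh2* and least for *Tet1*. *Dnmt1*, second by median level, differed more between them than 4 less abundant transcripts did. The largest single difference was 6.17, for *Dnmt3a* in Sensitized replicate 2.

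**Figure D1:**
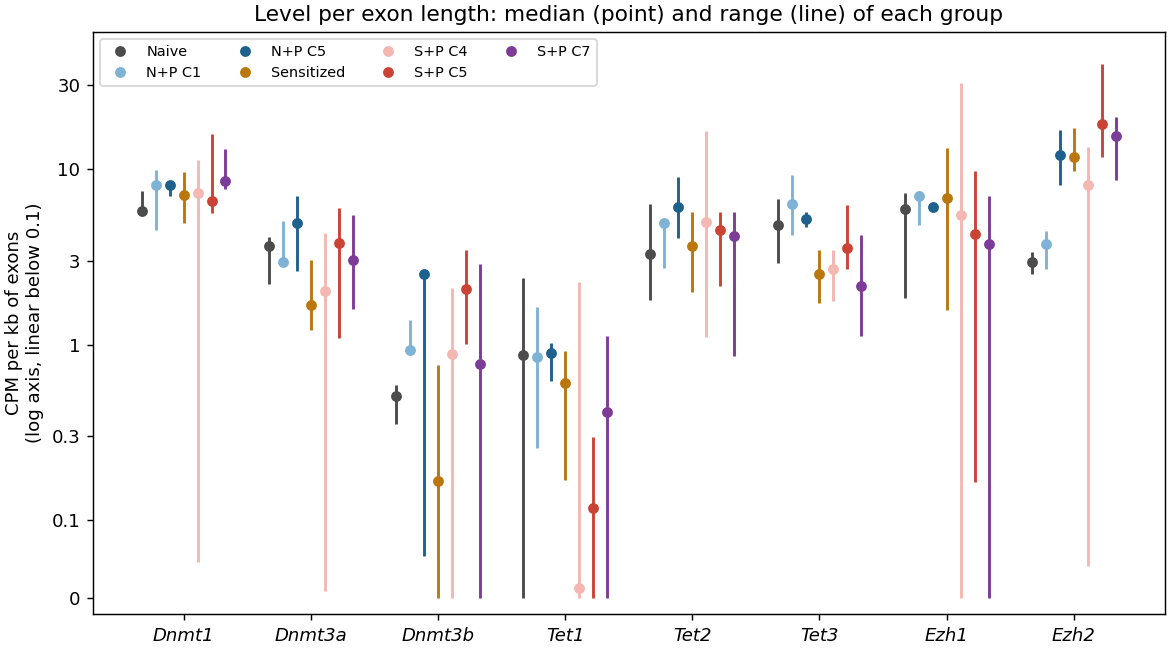
Level of each gene per kb of exon (CPM per kb, log axis that is linear below 0.1), with a point at the median and a line over the range of the samples of each of the 7 groups. *Ezh2* lies between 2.52 and 4.41 CPM per kb in all samples of Naive and N+P C1 and above 8 in all samples of Sensitized, N+P C5, S+P C7 and S+P C5.

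*Dnmt1* differed little between groups. Its level was 48.2, 49.2 and 64.0 CPM in Naive, 41.6, 53.3, 81.4 and 67.3 CPM in Sensitized, 69.1, 84.2 and 38.1 CPM in N+P C1 and 72.7, 68.6 and 59.7 CPM in N+P C5. In the sensitized post-partum groups the lowest, median and highest levels were 0.397, 61.8 and 95.9 CPM in S+P C4 and 47.7, 55.6 and 134 CPM in S+P C5, and S+P C7 had 65.6, 110, 110, 71.9 and 72.4 CPM. Group means ranged from 53.8 ± 8.83 CPM (SD, n = 3) for Naive to 85.9 ± 21.9 CPM (SD, n = 5) for the S+P C7 cells. The samples of every pair of groups compared overlapped. Within a sample, *Dnmt1* exceeded *Dnmt3a* per kb in 29 of 30 samples, and the exception was S+P C4 replicate 3, which had 4 *Dnmt1* counts.

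The de novo enzyme *Dnmt3a* had its lowest group mean in Sensitized and its highest in N+P C5. It was at 37.7, 62.2 and 70.0 CPM in Naive, at 20.6, 51.8, 25.8 and 31.8 CPM in Sensitized, at 50.5, 85.5 and 50.3 CPM in N+P C1 and at 83.3, 119 and 44.6 CPM in N+P C5. S+P C4 spanned 0.156 to 73.2 CPM with a median of 34.2 CPM, S+P C5 spanned 18.5 to 102 CPM with a median of 64.5 CPM, and S+P C7 had 38.2, 92.6, 51.8, 67.4 and 27.02 CPM. The order of means was therefore Sensitized (32.5 ± 13.6, SD, n = 4), S+P C4 (33.3 ± 26.97, n = 6), S+P C7 (55.4 ± 25.7, n = 5), Naive (56.6 ± 16.8, n = 3), N+P C1 (62.1 ± 20.3, n = 3), S+P C5 (62.9 ± 26.9, n = 6) and N+P C5 (82.4 ± 37.4, n = 3). All neighbors in this order overlapped. Between the technical libraries of Sensitized, the absolute log2 difference of *Dnmt3a* was 0.53, 6.17, 0.014 and 4.73 in replicates 1, 2, 3 and 4. The counts were 16 and 1019 in replicate 2 and 1207 and 17 in replicate 4, so the low mean of Sensitized is uncertain.

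*Dnmt3b*, the other de novo enzyme, was scarce in all groups and lowest in Sensitized. Its level was 3.17, 2.19 and 3.66 CPM in Naive, 0, 1.5004, 0.577 and 4.72 CPM in Sensitized, 5.66, 8.60 and 5.80 CPM in N+P C1 and 0.336, 15.6 and 16.1 CPM in N+P C5. All 6 samples of S+P C5, from 6.24 to 21.5 CPM with a median of 12.8 CPM, lay above all 4 of Sensitized, and 1.45% of all genes tested showed such a separation upward in this comparison. All 3 samples of N+P C1 likewise lay above all 3 of Naive, where 4.22% of genes did. The technical libraries of N+P C1 held 188 and 0 *Dnmt3b* counts in replicate 1, 192 and 55 in replicate 2 and 201 and 1 in replicate 3, so this separation is uncertain. S+P C4 had 0 to 13.1 CPM with a median of 5.51 CPM, and S+P C7 had 17.8, 0, 17.5, 4.78 and 0.0489 CPM. None of these differences passed the edgeR test, and *Dnmt3a* exceeded *Dnmt3b* per kb in 26 of 30 samples.

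**Figure D2:**
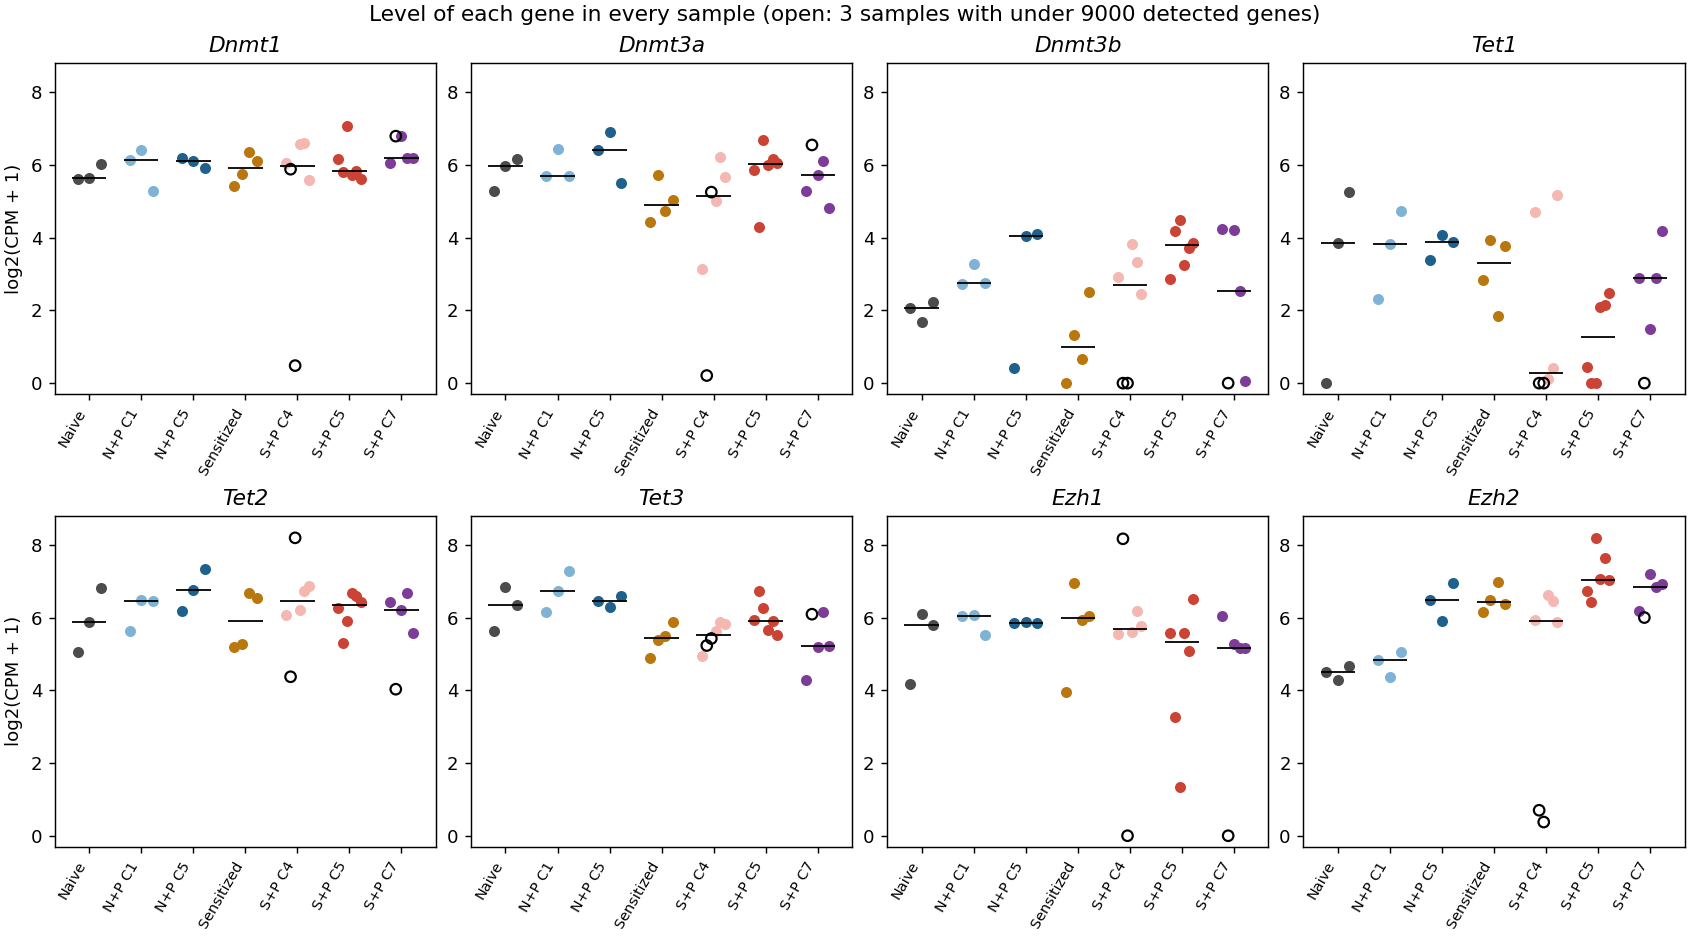
Level of each of the 8 genes in each of the 30 samples as log2(CPM + 1), by group, with a line at the group's median and open circles for the 3 samples with under 9000 detected genes. *Ezh2* separates Naive and N+P C1 from the other groups apart from 2 open circles in S+P C4 below 1 CPM, and *Tet1* and *Dnmt3b* scatter down to 0 in several groups.

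Of the demethylation enzymes, *Tet1* was detected unevenly. It was at 0, 13.4 and 37.1 CPM in Naive, at 6.07, 14.3, 2.61 and 12.5 CPM in Sensitized, at 3.98, 13.2 and 25.4 CPM in N+P C1 and at 9.53, 15.8 and 13.8 CPM in N+P C5. S+P C4 had 2 samples at 35.1 and 25.2 CPM and 4 at 0.339 CPM or less, S+P C5 spanned 0 to 4.59 CPM with a median of 1.83 CPM, and S+P C7 had 6.43, 0, 1.79, 6.36 and 17.2 CPM. All 6 samples of S+P C5 lay below all 3 of N+P C5, a separation that 1.70% of genes tested showed downward, and the difference did not pass the edgeR test. *Tet1* was at 0 in 1 Naive sample, 1 of S+P C7, 2 of S+P C5 and 2 of S+P C4, where a count of 0 allows up to 3 counts in the sample's total. Without the 3 samples of few genes its log2 fold change in S+P C5 against S+P C4 was -2.96 (SE 1.42) with an unadjusted p of 0.0470, under 0.05 as for 13% of genes, and an adjusted p of 0.383 in edgeR.

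*Tet2* spread widely in every group without a group standing apart. It was at 32.0, 58.1 and 111 CPM in Naive, at 35.2, 37.9, 101 and 91.8 CPM in Sensitized, at 48.2, 88.1 and 87.1 CPM in N+P C1 and at 72.0, 107 and 159 CPM in N+P C5. S+P C4 spanned 19.7 to 291 CPM with a median of 88.7 CPM, S+P C5 38.4 to 101 CPM with a median of 80.0 CPM, and S+P C7 had 85.3, 15.3, 73.5, 101 and 46.4 CPM. The lowest values in S+P C4 and S+P C7 and the highest in S+P C4 all came from the 3 samples with few detected genes.

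*Tet3* had higher group means in mice without a graft than in grafted mice, but it was not called by edgeR. Its level was 48.9, 113 and 80.1 CPM in Naive, 70.1, 105 and 154 CPM in N+P C1, 87.2, 77.9 and 95.2 CPM in N+P C5 and 28.7, 40.7, 44.0 and 57.4 CPM in Sensitized. S+P C4 spanned 29.7 to 57.6 CPM with a median of 45.2 CPM, S+P C5 spanned 45.1 to 105 CPM with a median of 59.5 CPM, and S+P C7 had 18.6, 67.2, 35.2, 70.0 and 36.1 CPM. The 3 group means of mice without a graft, 80.6 ± 32.0 CPM in Naive, 110 ± 42.0 CPM in N+P C1 and 86.7 ± 8.66 CPM in N+P C5 (SD, n = 3 each), were above the 4 of grafted mice, which were 42.7 ± 11.8 CPM in Sensitized (SD, n = 4), 44.9 ± 10.9 CPM in S+P C4 (n = 6), 65.7 ± 21.7 CPM in S+P C5 (n = 6) and 45.4 ± 22.3 CPM in S+P C7 (n = 5). Their samples overlapped, since the lowest Naive mouse lay within the range of every grafted group. In the edgeR test of any difference among the 7 groups *Tet3* had an adjusted p of 0.335, and without the 3 samples of few genes an adjusted p of 0.105, both over the 0.1 set for a call. Without those samples its log2 fold changes were -0.93 (SE 0.40, adjusted p 0.472 in edgeR) for Sensitized against Naive and -0.73 (SE 0.34, adjusted p 0.337) for S+P C7 against S+P C5, each with an unadjusted p under 0.05, as for 10.5% and 13.7% of all genes. The likelihood ratio test of DESeq2 gave *Tet3* an adjusted p of 0.0390, where 2.38% of genes were called, so that the call for this gene depended on the tool. *Tet3* exceeded *Tet1* per kb in all 30 samples, while *Tet2* exceeded *Tet3* in 19 of 30.

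The PRC2 subunit *Ezh1* showed no ordering by group. It was at 17.0, 67.6 and 54.6 CPM in Naive, at 14.5, 122, 60.3 and 65.4 CPM in Sensitized, at 64.5, 66.0 and 44.5 CPM in N+P C1 and at 56.2, 58.2 and 56.2 CPM in N+P C5. S+P C4 spanned 0 to 286 CPM with a median of 50.6 CPM, S+P C5 spanned 1.53 to 89.7 CPM with a median of 39.4 CPM, and S+P C7 had 64.8, 0, 37.5, 34.8 and 34.6 CPM. Both extremes of S+P C4 and the 0 of S+P C7 came from the samples with few detected genes, and without them S+P C4 averaged 54.7 ± 11.8 CPM (SD, n = 4).

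*Ezh2* had the smallest p of the 8 genes in the edgeR test of any difference among the groups, and *Tet3* had it in that of DESeq2. The *Ezh2* level was 21.4, 18.4 and 24.4 CPM in Naive and 27.4, 19.6 and 32.2 CPM in N+P C1. In Sensitized it was 70.6, 87.9, 124 and 82.1 CPM, and in N+P C5 it was 88.0, 59.0 and 122 CPM. S+P C5 had the highest levels, from 84.8 to 289 CPM with a median of 131 CPM, and S+P C7 had 71.8, 62.9, 145, 113 and 121 CPM. Naive and PD1- post-partum cells of naive mice were thus low and overlapped each other, and every sample of Sensitized, N+P C5, S+P C7 and S+P C5 was above all of them. Of all genes, 3.78% were separated upward for Sensitized against Naive, 7.40% for N+P C5 against Naive and 5.48% for N+P C5 against N+P C1. The share of genes with the whole pattern was not counted. S+P C4 held 4 samples between 57.4 and 97.5 CPM and 2 samples, replicates 2 and 3, at 0.625 and 0.298 CPM, which rested on 12 and 3 counts.

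By mean the order for *Ezh2* was Naive (21.4 ± 3.01 CPM, SD, n = 3), N+P C1 (26.4 ± 6.35, n = 3), S+P C4 (50.3 ± 41.5, n = 6), N+P C5 (89.7 ± 31.6, n = 3), Sensitized (91.2 ± 23.2, n = 4), S+P C7 (103 ± 34.5, n = 5) and S+P C5 (157 ± 75.3, n = 6). Neighbors in this order all overlapped. Without the 3 samples of few genes the order was the same, and the mean of S+P C4 was 75.3 ± 19.6 CPM (SD, n = 4). The step from N+P C1 to S+P C4 was then the one place where neighbors did not overlap. It appeared only with the S+P C4 samples at 0.625 and 0.298 CPM left out, and the share of genes with such a step was not counted. Relative to its paralog, *Ezh2* was below *Ezh1* per kb in 2 of 3 Naive and all 3 N+P C1 samples, and above it in all 3 N+P C5, all 6 S+P C5 and all 5 S+P C7 samples, in 3 of 4 Sensitized and in 5 of 6 S+P C4 samples.

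The first comparisons set Sensitized cells and the gated post-partum subsets of N+P mice beside the ungated Naive cells. For the N+P subsets, pregnancy and the sorting gate cannot be told apart. A gene was called where edgeR's quasi-likelihood test gave an adjusted p under 0.1 over all genes and the absolute log2 fold change was above 0.9. *Ezh2* had a log2 fold change of 2.09 (SE 0.99) for Sensitized against Naive, with an unadjusted p of 0.0421 and an adjusted p of 0.627 in edgeR, and was not called. None of the 8 genes was called in this comparison, where 0.153% of all genes were, and *Ezh2* was the single one with an unadjusted p under 0.05, where 7.82% of genes were. Without the 3 samples of few genes, none of which belongs to either group, the log2 fold change was 2.08 (SE 0.38) and the adjusted p in edgeR was 0.00378. *Ezh2* was then called as higher in Sensitized, where 0.782% of genes were called. All 4 Sensitized samples lay above all 3 Naive samples, as did 3.78% of genes. A fit to these 2 groups alone also called *Ezh2*, with an adjusted p of 0.0409 in edgeR. The 7 groups share 1 estimate of the spread in the fit to all samples.

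For N+P C5 against Naive, *Ezh2* had a log2 fold change of 2.06 (SE 1.02) and an adjusted p of 0.765 in edgeR with all samples. Here no member was called and none had an unadjusted p under 0.05, against 0.0407% and 5.33% of all genes. With the 3 samples left out, the log2 fold change was 2.09 (SE 0.40, 95% interval 1.27 to 2.91) with an adjusted p of 0.00809 in edgeR. *Ezh2* was then called as higher in N+P C5, where 0.614% of genes were called. A fit to N+P C5 and Naive alone did not call *Ezh2*. The 3 N+P C5 samples lay above the 3 Naive samples, as did 7.40% of genes. N+P C1, the PD1- cells of the same pregnant mice, differed from Naive by a log2 fold change in *Ezh2* of 0.30 (95% interval -1.71 to 2.31), or 0.32 (95% interval -0.47 to 1.11) without the 3 samples, and no member was called in that comparison, where 0% and 0.0972% of all genes were. For N+P C5 against N+P C1 the log2 fold change of *Ezh2* was 1.76 with an adjusted p of 0.919 in edgeR, and 1.77 with an adjusted p of 0.111 without the 3 samples. The call was missed in both, where 0.00509% and 0.0767% of genes were called, although the groups did not overlap, as for 5.48% of genes.

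Markers of other cell types also differed between these groups. The 4 NK markers summed to 118 to 244 CPM in Sensitized and to 4.61 to 55.5 CPM in Naive, with *Ncr1* at 0 in 3 of 4 Sensitized samples and in all Naive samples and *Klrb1c* the largest part. The 4 CD4 and regulatory T cell markers summed to 11.3 to 50.4 CPM in N+P C5 and to 2.35 to 8.60 CPM in Naive, with *Cd4* at 0 in all 3 N+P C5 samples, *Foxp3* at 0 in 2 of them and *Cd40lg* the largest part. The 6 B cell markers summed to 40.4 to 78.3 CPM in N+P C5 and 17.3 to 51.2 CPM in Naive. The myeloid markers summed to 43.1 to 412 CPM in Sensitized, 15.6 to 21.7 CPM in N+P C5 and 1.59 to 56.9 CPM in Naive. The 7 erythroid and platelet markers summed to 3.65, 156 and 4.07 CPM in N+P C5, 0.182 to 6.25 CPM in Sensitized and 0 to 0.288 CPM in Naive, so that N+P C5 did not overlap Naive, with *Pf4* at 0 in both. The 4 gamma delta T cell markers summed to 11.1 to 84.8 CPM in N+P C5, 1.15 to 13.7 CPM in Sensitized and 7.18 to 25.1 CPM in Naive. The part of these cells in the *Ezh2* level was not tested. Total counts overlapped, from 26400797 to 32226374 in Naive, from 27028748 to 50176584 in N+P C5 and from 20623004 to 54809406 in Sensitized.

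**Figure D3:**
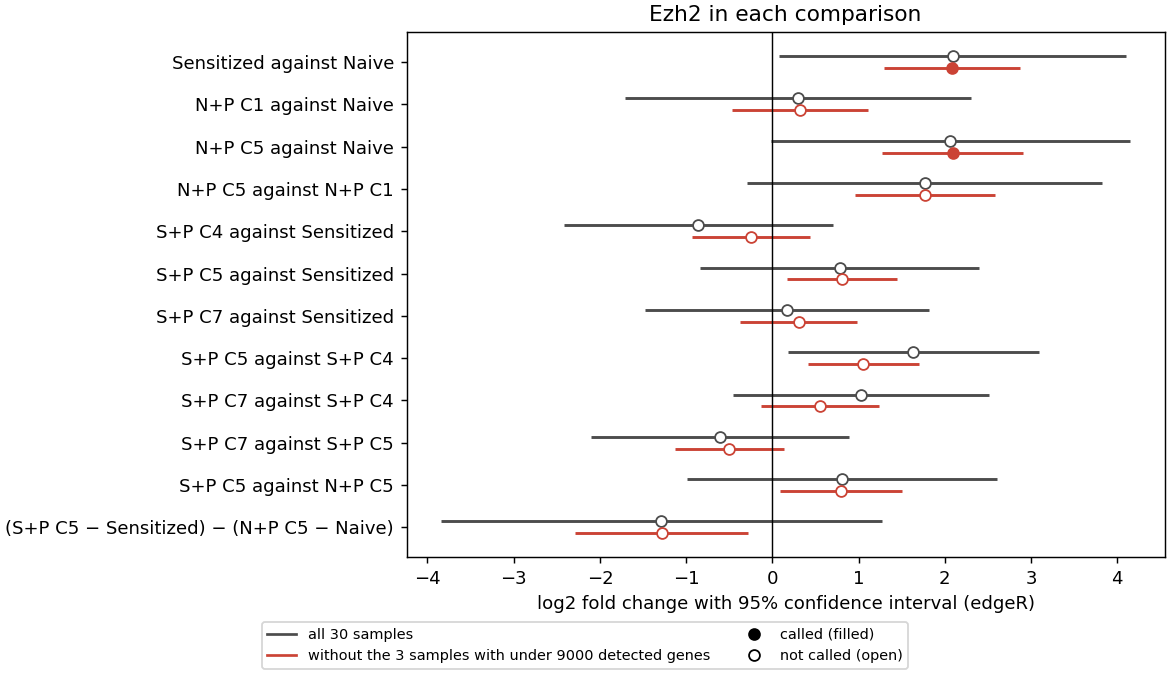
*Ezh2* log2 fold change with its 95% confidence interval from edgeR for the 11 comparisons of groups and for S+P C5 against Sensitized minus N+P C5 against Naive. Values are given with all 30 samples (gray) and without the 3 samples of under 9000 detected genes (red), filled where called. The estimates stay close to each other except where S+P C4 takes part, the intervals narrow without the 3 samples, and 2 comparisons against Naive are then called.

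The next comparisons set the gated post-partum subsets of S+P mice beside the ungated Sensitized cells. Pregnancy and the sorting gate cannot be told apart in them, and the time after the graft can differ as well. Against Sensitized, *Ezh2* had log2 fold changes of -0.86 (95% interval -2.42 to 0.71) in S+P C4, 0.78 (95% interval -0.84 to 2.40) in S+P C5 and 0.17 (95% interval -1.48 to 1.82) in S+P C7. These were, with the 3 samples left out, -0.25 (95% interval -0.93 to 0.43), 0.80 (95% interval 0.17 to 1.44) and 0.30 (95% interval -0.38 to 0.99). The S+P C5 value then had an unadjusted p of 0.0152 and an adjusted p of 0.211 in edgeR, and it was not called. No member was called in these 3 comparisons under either set of samples, while of all genes 0.00509% were called for S+P C4, 0.0712% for S+P C5 and 0.0305% in the case of S+P C7. Without the 3 samples the shares were 0.0205%, 1.02% and 0.353%. In S+P C5 against Sensitized without the 3 samples, *Dnmt3a* (log2 fold change 0.98, adjusted p 0.281) and *Dnmt3b* (2.97, adjusted p 0.237) were the other members with an unadjusted p under 0.05 in edgeR, where 17.2% of all genes were. Gamma delta T cell markers summed to 86.7 to 376 CPM in S+P C5 and 56.6 to 1009 CPM in S+P C7. They summed to 0.298 to 1374 CPM in S+P C4 and 1.15 to 13.7 CPM in Sensitized. NK markers summed to 133 to 279 CPM in S+P C5 and 253 to 678 CPM in S+P C7. They summed to 1.99 to 648 CPM in S+P C4 and 118 to 244 CPM in Sensitized. Sums of the other cell types overlapped those of Sensitized. The part of these cells was not tested.

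Among the S+P subsets, which were taken from the same mice, the log2 fold change of *Ezh2* between S+P C5 and S+P C4 was 1.64 (SE 0.71), with an unadjusted p of 0.0286, under 0.05 as for 13.3% of genes, and an adjusted p of 0.311 in edgeR. It was 1.05 with an adjusted p of 0.243 without the 3 samples. Both values come from fits that treated subsets of the same mouse as independent samples. With all samples, pairing the subsets by mouse gave *Ezh2* a log2 fold change of 2.40 (SE 1.39). The unadjusted p was then 0.118 and the adjusted p 0.999 in edgeR. *Ezh2* was higher in S+P C5 than in S+P C4 in 6 of 6 mice, as were 3.60% of all genes tested. It was higher in S+P C7 than in S+P C4 in 4 of 4 mice, as were 4.67% of genes. Counts of mice in this paragraph include the samples of few genes and were not repeated without them. Mice 2 and 3 each have such a sample in S+P C4, with *Ezh2* at only 0.625 and 0.298 CPM. For mouse 3 the S+P C7 sample was of few genes as well. Between the PD1+ subsets *Ezh2* was lower in S+P C7 than in S+P C5 in 3 of 4 mice, with a log2 fold change of -0.61 (95% interval -2.11 to 0.89). *Dnmt3a* was lower in S+P C7 than in S+P C5 in 4 of 4 mice, as were 7.13% of genes. In the N+P mice *Ezh2* and *Tet2* were higher in C5 than in C1 in 3 of 3 mice, as were 11.5% of genes. No member was called in S+P C5 against S+P C4, S+P C7 against S+P C4 or S+P C7 against S+P C5, where 0.0305%, 0.00509% and 0% of genes were called with all samples and 0.169%, 0% and 0% without the 3.

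PD1+CD73+ cells of sensitized and of naive mothers were also compared directly. For S+P C5 against N+P C5 the log2 fold change of *Ezh2* was 0.80 (95% interval -0.99 to 2.601), and without the 3 samples 0.80 (95% interval 0.09 to 1.503) with an adjusted p of 0.616 in edgeR. In this smaller set 7.68% of genes had an unadjusted p under 0.05. For *Ezh2*, the log2 fold change of S+P C5 against Sensitized minus that of N+P C5 against Naive was -1.29 (95% interval -3.84 to 1.27). Without the 3 samples it was -1.29 (95% interval -2.29 to -0.28), with an unadjusted p of 0.0140, under 0.05 as for 8.36% of genes, and an adjusted p of 0.523 in edgeR. *Ezh2* thus had a 95% interval below 0 for this difference in the smaller set of samples but was not called in either set, where 0.0254% and 0.138% of genes were. No member was called in S+P C5 against N+P C5, where 0% of genes were with all samples and 0.0818% in the smaller set.

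In the test of any difference among the 7 groups edgeR called 1.84% of all genes and none of the 8 members. *Ezh2* had the smallest p, 0.0344 before and 0.203 after adjustment, and *Tet3* followed with 0.0845 and 0.335. The other 6 had an unadjusted p between 0.626 and 0.974 and an adjusted p of 1.00. When the 3 samples were left out edgeR called *Ezh2*, with an adjusted p of 4.13e-05, alone among the members, where 3.94% of all genes were called, and *Dnmt3a*, *Dnmt3b*, *Tet1*, *Tet2*, *Ezh1* and *Dnmt1* had adjusted p-values of 0.522, 0.678, 0.849, 0.916, 1.00 and 1.00. With all samples DESeq2 did not call *Ezh2* for Sensitized against Naive (log2 fold change 2.12, adjusted p 0.362), where it called 5.04% of genes. Nor did it for N+P C5 against Naive (2.14, adjusted p 0.469), where it called 4.87%.

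Since *Ezh2* and *Dnmt1* are known to be higher in dividing cells, each member was set beside the summed level of 26 cell cycle genes within groups. The sum ran from 614 to 1556 CPM in Naive, 520 to 725 CPM in N+P C1, 616 to 864 CPM in N+P C5, 534 to 1340 CPM in Sensitized, 357 to 987 CPM in S+P C4, 852 to 1865 CPM in S+P C5 and 992 to 2644 CPM in S+P C7. *Ezh2* lay above every Naive sample in Sensitized, N+P C5, S+P C7 and S+P C5, whose median sums were 924, 711, 2550 and 1199 CPM against 708 CPM in Naive. The top of the Naive range came from replicate 1 alone, a single library with 1556 CPM in these genes and 21.4 CPM of *Ezh2*, and the other Naive sums were 614 and 708 CPM. Of the 4 Sensitized samples, 3 lay above these other sums, at 898, 949 and 1340 CPM. The part of cell division in the differences of *Ezh2* between groups was not tested.

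Over deviations from the group means of log2(CPM + 1) in 30 samples, *Ezh2* followed the cell cycle sum with a Pearson r of 0.53 (permutation p = 0.0104, adjusted over 8 genes 0.0835) and a Spearman rho of 0.47 (permutation p = 0.0195, adjusted 0.156). Neither passed 0.05 after adjustment, and subsets of 1 mouse are not independent. Without the 2 samples farthest from the median sum, both of S+P C7, the r of *Ezh2* was 0.56 (adjusted permutation p = 0.0578). Leaving out the 3 samples of few genes gave 0.32 (adjusted permutation p = 0.335), and S+P C4 replicates 2 and 3, among those left out, were lowest of all samples in both measures. For the other 7 members r lay between -0.21 and 0.28 with adjusted permutation p-values from 0.766 to 0.868, and *Dnmt1* had an r of 0.26.

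**Figure D4:**
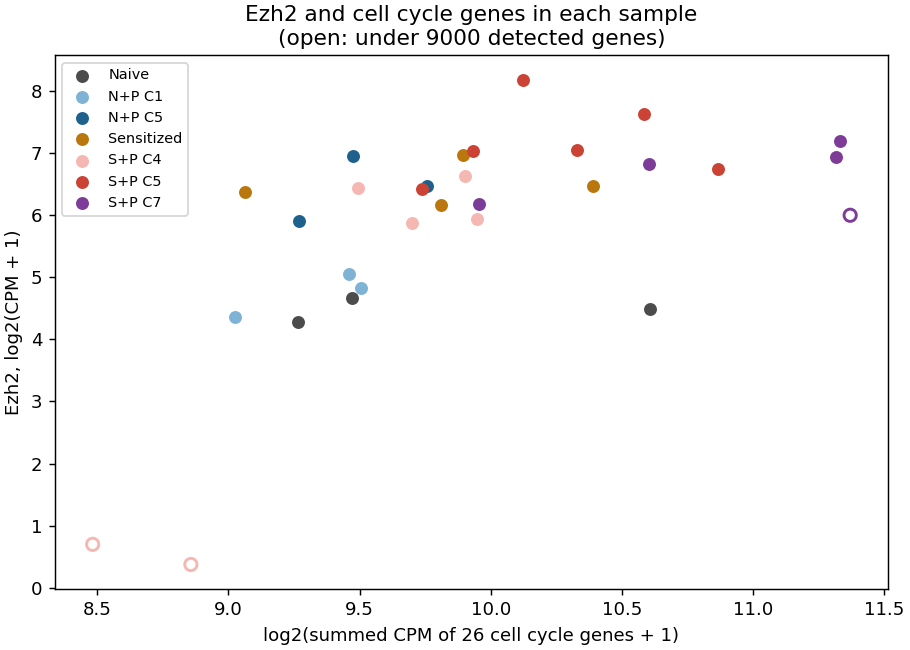
*Ezh2* level against the summed level of 26 cell cycle genes in each of the 30 samples, both as log2(CPM + 1), colored by group, with open circles for the 3 samples of under 9000 detected genes. Naive and N+P C1 samples sit below N+P C5 and Sensitized samples in *Ezh2*, the Naive sample farthest to the right is replicate 1, and the 2 open circles of S+P C4 are lowest in *Ezh2*.

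The partners of these enzymes were described by lists. Of 11 other subunits of PRC2 listed, 10 were tested, none was called by edgeR in any comparison with all samples, and in Sensitized against Naive and N+P C5 against Naive none had an unadjusted p under 0.05, with median log2 fold changes of -0.15 and 0.05 beside 0.04 and 0 over all genes. *Suz12*, a core subunit that EZH2 needs for activity, averaged 52.4 ± 8.30 CPM in Naive (SD, n = 3), 44.2 ± 12.8 CPM in Sensitized (n = 4), 51.8 ± 11.4 CPM in N+P C5 (n = 3) and 75.6 ± 37.4 CPM in S+P C5 (n = 6), with overlap throughout and an adjusted p of 1.00 in the edgeR test of any difference. *Mtf2*, an accessory subunit that brings the complex to CpG-rich DNA, had an adjusted p of 0.559 in that test. *Epop* (adjusted p 0.233) reached 139 CPM in S+P C4 replicate 3 alone, a sample of few genes, and was at most 1.66 CPM in the other S+P C4 samples and 4.38 CPM in the other groups.

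No gene of the other lists was called by edgeR in a pairwise comparison with all samples, and 1 was called in the test of any difference, the cell cycle gene *Top2a* with an adjusted p of 0.0578. *Top2a*, the topoisomerase of dividing cells, averaged 18.4 ± 9.62 CPM in Naive (SD, n = 3), 93.6 ± 52.0 CPM in S+P C5 (n = 6) and 240 ± 224 CPM in S+P C7 (n = 5). *Mki67*, a marker of dividing cells, had an adjusted p of 0.108 and *Ccnb2*, a mitotic cyclin, 0.180. The 4 tested genes of 5 listed for other methylation writers and maintenance had adjusted p-values of 1.00, among them *Uhrf1*, which guides DNMT1 to replicated DNA, the remodeler *Hells* and *Dmap1*. For the 7 methyl-CpG readers the smallest adjusted p was 0.451, for *Mbd2*, followed by 1.00 for *Mbd1* and *Zbtb4*, and the H3K27 demethylases *Kdm6a* and *Kdm6b* both had 1.00.

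Of the 13 tested of 14 demethylation partners, *Ogt*, the transferase that binds TET proteins, came first with an adjusted p of 0.231 in the edgeR test of any difference. *D2hgdh*, an enzyme that clears hydroxyglutarate, had 0.656. *Ogt* averaged 223 ± 81.6 CPM in Naive (SD, n = 3), 336 ± 81.1 CPM in Sensitized (n = 4), 516 ± 171 CPM in N+P C5 (n = 3) and 476 ± 80.5 CPM in S+P C5 (n = 6). Of the 18 PRC1 subunits, *Rybp*, *Pcgf2* and *Pcgf1* had the smallest adjusted p-values of 0.185, 0.306 and 0.401, and *Rybp* reached 118 CPM in S+P C4 replicate 3 alone, with 0.609 to 9.98 CPM in the other S+P C4 samples and at most 6.90 CPM in the other groups. Without the 3 samples of few genes, *Ogt* rose in N+P C5 against Naive (log2 fold change 1.24, SE 0.31, adjusted p 0.0724 in edgeR), and *Jarid2*, a PRC2 cofactor, rose in S+P C5 against Sensitized (1.32, SE 0.35, adjusted p 0.0835), where 0.614% and 1.02% of genes were called. The methyl-CpG reader *Zbtb38* and the cell cycle genes *Mki67*, *Mcm3*, *Mcm6* and *Tyms* were then called in the test of any difference. *Jarid2*, *Zbtb38*, *Mcm3*, *Mcm6* and *Tyms* are named because they were called, after their values had been seen.

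The transcripts most like each member across the 30 samples were ranked by Spearman rho among 8263 or 8264 genes with a mean of at least 10 CPM, which share libraries and depth with it. *Ezh2* was most like *Fyn* (rho 0.84), *Nsmaf* (0.83) and *Ttc39b* (0.83), and *Tet3* most like *Mycbp2* (0.83), *Timp2* (0.79) and *Smc4* (0.78). For both genes the first of these held without the 3 samples, at 0.82 for *Fyn* and 0.83 for *Mycbp2*. *Tet1* was most like *Ahctf1* (0.81), *Prpsap2* (0.79) and *Zfp260* (0.78), and *Tet2* most like *Nr2c2*, *Zfyve16* and *Chd1* (0.68 each). Among the methyltransferases, *Dnmt3b* was most like *Tdg* (0.74), the glycosylase that excises oxidized methylcytosine, then *Rc3h2* (0.73) and *E130308A19Rik* (0.72). *Dnmt3a* was most like *Phtf2* (0.77), *Ddx6* (0.71) and *Tmem131* (0.71). *Dnmt1* was most like *Arsb* (0.63), *Nek1* (0.60) and *E2f2* (0.59). *Ezh1* was most like *Ankrd11* (0.76), *Nfx1* (0.73) and *Gvin-ps6* (0.73), and none of these 3 was among those of *Ezh2*.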

How the data were processed

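RNA-Seq counts per gene were deposited by the authors without normalization. Per the study's methods and the submitters' processing notes, reads were trimmed with cutadapt 3.4, aligned to GRCm39 with STAR 2.6.1b, kept where uniquely mapped and counted with featureCounts 2.0.1. The strand option and annotation release are not given in the sources used here, and SmartSeq2 does not mark strand, so reads of genes that overlap on opposite strands cannot be told apart. Exons shared with such a gene make up 9.06% of *Tet3* (*Bola3*), 8.80% of *Ezh1* (*Cntnap1*), 3.36% of *Dnmt3b* (*Dnmt3bos*), 1.29% of *Ezh2* (*Cul1*), 0.78% of *Dnmt3a* (*Dnmt3aos*) and 0.37% of *Tet2* (*Gm42567*). The GENCODE M39 annotation, on the same build, placed 54749 of 55359 genes. By it *Dnmt1* lies on chromosome 9 (20817945 to 20871184, minus strand), *Dnmt3a* on chromosome 12 (3856007 to 3964443, plus), *Dnmt3b* on chromosome 2 (153490861 to 153529650, plus), *Tet1* on chromosome 10 (62640349 to 62744775, minus), *Tet2* on chromosome 3 (133169436 to 133250900, minus), *Tet3* on chromosome 6 (83339355 to 83436066, minus), *Ezh1* on chromosome 11 (101081934 to 101117315, minus) and *Ezh2* on chromosome 6 (47507073 to 47572331, minus). All 8 are protein-coding, and exon length is the union of their annotated exons.

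The 56 libraries held 6636532 to 32625243 counts (median 17299849). Technical libraries were summed per mouse and subset, which gave 30 samples. CPM uses library totals scaled by TMM. Reads were counted without molecular identifiers, so that they are not independent molecules and a floor of 3 counts covers counting error only. Per gene, edgeR 4.0.16 (TMM, genes kept by filterByExpr at min.count 10, two-sided quasi-likelihood test with robust dispersions over the 7 groups) was followed by Benjamini-Hochberg adjustment over 19657 genes, or 19553 without the 3 samples. Standard errors are the absolute log2 fold change divided by the square root of F. The FDR of 0.1 and the log2 fold change of 0.9 are the study's thresholds. All libraries were sequenced in 1 run. The study states that the cells were sorted in more than 1 independent experiment, and the labels do not say which sample came from which. It also gives fewer mice per group than the labels number in the S+P groups. Permutation tests used 100000 resamples within groups, two-sided, and programs were checked on simulated data. R 4.3.3 with DESeq2 1.42.0 and limma 3.58.1 and Python 3.11.15 with pandas 2.3.3, numpy 2.4.6 and, for plots, matplotlib 3.10.9 were used.

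The genes, lists and repeated-library handling were chosen with earlier results of these data known. By the naming rule, all 8 members are given in each group and in the test of any difference, with fold changes where the unadjusted p is under 0.05, the 3 smallest p of each list and the 3 most alike genes; *Ezh2* is given in each comparison beyond the rule. Some genes the rule names are not reported here. Replicate numbers come from the labels. Subsets of N+P or S+P mice with the same number were taken as the same mouse, since the table's column names repeat the mouse. Deviations from group means correlated between same-numbered samples at a mean r of 0.07 (lowest 0.02, 3 pairs) in N+P and 0.16 (lowest 0.10, 14 pairs) in S+P, against -0.04 and -0.02 between different numbers. Numbers across Naive, Sensitized, N+P and S+P mice do not pair. The labels number the replicates without saying more, and p-values measure the spread between these samples. Alternatives were DESeq2, RLE scaling, no filter, other thresholds, only the groups compared, a replicate block, separate technical libraries, other handling of the repeated libraries, leaving out the 3 samples with few genes or each sample in turn, and, for the cell cycle relation, *Mki67* alone and a pseudocount of 0.1 in place of 1.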

Additional observations from a re-analysis of the deposited data

Results flagged for a closer look

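In 3 of 32 gene and group combinations with 4 to 6 samples, 1 sample lay farther from the rest than Dixon's 95% limit allows, where chance flags about 1 in 20. *Dnmt1* was at 134 CPM in S+P C5 replicate 3, against 70.2 CPM in the next sample. *Tet2* was at 291 CPM in S+P C4 replicate 3, against 115 CPM in the next sample. *Ezh1* was at 286 CPM in S+P C4 replicate 2, against 71.7 CPM in the next sample. Both S+P C4 samples are among the 3 with few detected genes, and S+P C5 replicate 3 is a single library of 12652 detected genes.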

How the results depend on the processing

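Of 157 recalculated counts of members past the threshold, in the comparisons or in the cell cycle relation, 151 stayed the same. The 6 that moved, each from 0, were for Sensitized against Naive 1 (*Ezh2*) in a fit of only the groups compared and 1 (*Ezh2*) without the 3 samples with under 9000 detected genes, for N+P C5 against Naive 1 (*Ezh2*) without those 3 samples, and for any difference among the 7 groups 1 (*Ezh2*) without those 3 samples, 1 (*Tet3*) with DESeq2 and 2 (*Ezh2*, adjusted p 0.00453, and *Tet3*, 0.0118) with each technical library as a separate sample, which counts technical libraries as mice. Leaving out each sample in turn kept all 143 counts at 0, with the adjusted p of *Ezh2* in the edgeR test of any difference from 0.135 to 0.337 and of *Tet3* from 0.195 to 0.674. Adding the replicate number as a block, in fits of only the groups compared, called no member in any comparison. Without the block, such a fit called *Ezh2* for Sensitized against Naive (adjusted p 0.0409 in edgeR). With it the adjusted p was 0.419, but numbers do not pair mice there. For N+P C5 against N+P C1, where numbers pair mice, the block gave *Ezh2* an adjusted p of 0.133 in edgeR. Numbers pair mice in S+P C5 against S+P C4 as well, and there the adjusted p of *Ezh2* was 0.999.

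The log2 fold change of *Ezh2* stayed between 1.89 and 2.19 for Sensitized against Naive and between 1.05 and 2.40 for S+P C5 against S+P C4 over all alternatives. Neither changed sign. Spearman rho with the cell cycle sum changed sign for *Dnmt3a* (from 0.05 to -0.19 without the 3 samples and -0.011 without the 2 farthest), *Tet1* (from -0.04 to 0.0585 with *Mki67* alone and 0.10 without the 2 farthest), *Tet3* (from -0.15 to 0.39 with *Mki67* alone) and *Ezh1* (from -0.04 to 0.0456 with *Mki67* alone), with adjusted p from 0.235 to 0.962. *Tet1* and *Dnmt3b* are limited by low counts, with 3 or fewer in 7 and 5 of 30 samples. Both had 0 counts in each of the 3 samples with few genes. The part of the 200 cells per library, the same throughout, was not tested.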
